A study of Mus musculus with 18 samples.

Results

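The genes described here encode 6 enzymes of heme synthesis, given by the symbols Alas2, Alad, Uros, Cpox, Ppox and Fech, and the transporter Abcb10. Members were all probes whose platform symbol was one of these names, whatever their values, which gave 7 probes for 7 genes among 6868 probes and 5974 genes with a probe of 1 symbol. The samples were murine erythroleukemia (MEL) cells, an established line of transformed mouse erythroid precursors that makes hemoglobin when treated with hexamethylene bisacetamide (HMBA). On each of 18 two-colour arrays, cells at 1, 2, 3, 4, 5 or 6 days after HMBA were set against uninduced control cells, while both channels of a day 0 array carried control RNA. Series A had 1 array for each of days 0 to 6, and series B had 1 array for each of days 0, 2, 3, 4, 5 and 6. Series B also had 5 arrays titled SD, of days 0, 2, 3, 5 and 6, where the labels swap the channels of induced and control cells, apart from day 0. Neither the strain, nor the HMBA dose, nor whether arrays came from separate cultures was given by the labels, so p-values here speak only of differences among arrays, possibly technical ones.

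Heme is built by a chain of enzymes that starts and ends in the mitochondrion. Alas2, the erythroid form of 5-aminolevulinate synthase, joins glycine to succinyl-CoA and sets the pace of the pathway in red cell precursors. Alad then makes porphobilinogen in the cytosol, Uros closes the ring, Urod and Cpox trim its side chains, Ppox oxidises it to protoporphyrin, and Fech inserts iron. Abcb10 is a transporter of the mitochondrial inner membrane that mouse erythroid cells need to make hemoglobin. The array had a probe for Alas1, the housekeeping form of the first enzyme, and Urod was not analysed here.

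Upstream sequences of 3 members are shown because they span the results, the late estimate being above day 0 for Alas2, below it for Ppox and nearest to it for Cpox. Each is the 250 bases before the RefSeq start, 5′ to 3′, in build GRCm38.p6. Capitals mark the letters AGATAA or else the letters AGATAG or else the letters TGATAA or else the letters TGATAG (read by GATA factors), CACCC (read by Klf1 and related factors) and CCAAT (read by NF-Y), on either strand.
Alas2, chrX:150547167-150547416, + strand: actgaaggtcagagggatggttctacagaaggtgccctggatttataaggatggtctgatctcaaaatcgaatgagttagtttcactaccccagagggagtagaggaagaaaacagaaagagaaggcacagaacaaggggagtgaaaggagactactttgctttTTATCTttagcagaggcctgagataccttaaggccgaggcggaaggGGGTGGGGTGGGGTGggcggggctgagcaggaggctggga
Cpox, chr16:58669958-58670207, + strand: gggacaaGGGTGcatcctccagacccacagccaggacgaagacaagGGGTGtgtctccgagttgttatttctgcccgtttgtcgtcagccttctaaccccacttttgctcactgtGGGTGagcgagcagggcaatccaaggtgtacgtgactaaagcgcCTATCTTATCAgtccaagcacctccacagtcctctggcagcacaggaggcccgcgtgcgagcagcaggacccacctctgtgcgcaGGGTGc
Ppox, chr1:171281187-171281436, - strand: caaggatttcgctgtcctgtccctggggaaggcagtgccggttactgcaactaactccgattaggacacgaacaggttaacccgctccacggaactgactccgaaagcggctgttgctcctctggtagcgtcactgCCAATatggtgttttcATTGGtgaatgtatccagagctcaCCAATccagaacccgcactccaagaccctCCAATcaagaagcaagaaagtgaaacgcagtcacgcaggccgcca

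The Alas2 window held 1 GATA match, beginning 86 bases before the start, and 3 CACCC matches, beginning 40, 35 and 30 bases before it. The Cpox window held 2 GATA matches, beginning 91 and 86 bases before the start and sharing 1 base, and 4 CACCC matches. The Ppox window held 4 CCAAT matches and neither of the other motifs. Of all 32851 RefSeq windows of this length in the mouse table, 26.5 percent held a GATA match, 52.0 percent CACCC and 33.8 percent CCAAT. The core of the NF-E2 motif, TGAGTCA, was in 4.46 percent of all windows and in none of these 3.

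Values are log2 ratios of the deposited table after each array was centred on its median, so that 0 is the array's typical probe and 1 is a 2-fold higher ratio. The direction was likely induced over control, because the labels name channel 1 as induced on the arrays other than SD and because the alpha-globin probe (symbol Hba-ps3) stood above 0 there. Series B gave 2.22 (day 2), 2.07 (day 3), 6.38 (day 4), 5.97 (day 5) and 3.87 (day 6), against 0.67 (day 0). On the SD arrays it read -4.25 (day 2), 0.94 (day 3), -2.78 (day 5) and -4.20 (day 6), against 1.73 (day 0), so 3 of the 4 induced SD arrays ran the other way and all 4 lay below their day 0. SD values are given as deposited, and the labels do not settle their sign. Across probes, SD arrays correlated positively with the series B array of the same day (r of 0.66 on day 0 and of 0.42 to 0.58 on the other days), the day 0 arrays holding no induced RNA. Series A and B arrays outside SD held 2008 to 4945 values. Day 2 of series A stood apart from the other 12 arrays, with correlations across probes of -0.08 to 0.13 (median 0.05), and Cpox, Ppox and Abcb10 have a value on it. The next lowest medians were those of day 1 of series A, the only day 1 array (0.02 to 0.35, median 0.16), and day 3 of series A (-0.01 to 0.43, median 0.22).

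Measurement was patchy for this pathway. Of the 13 arrays outside SD, Cpox was measured on 13, Alad on 10, Alas2, Ppox and Fech on 9 each, Abcb10 on 7 and Uros on 5, against a median of 6 over all probes. Only 1 of the 7 members passed a minimum of 11 arrays. Of the SD arrays, 5 measured Cpox, 4 Fech, 3 Alas2, 3 Alad, 2 Abcb10, 1 Ppox and none Uros. Every day of series A from day 3 on measured at least 5 members, and day 0 of series B measured 3.

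**Figure D1:**
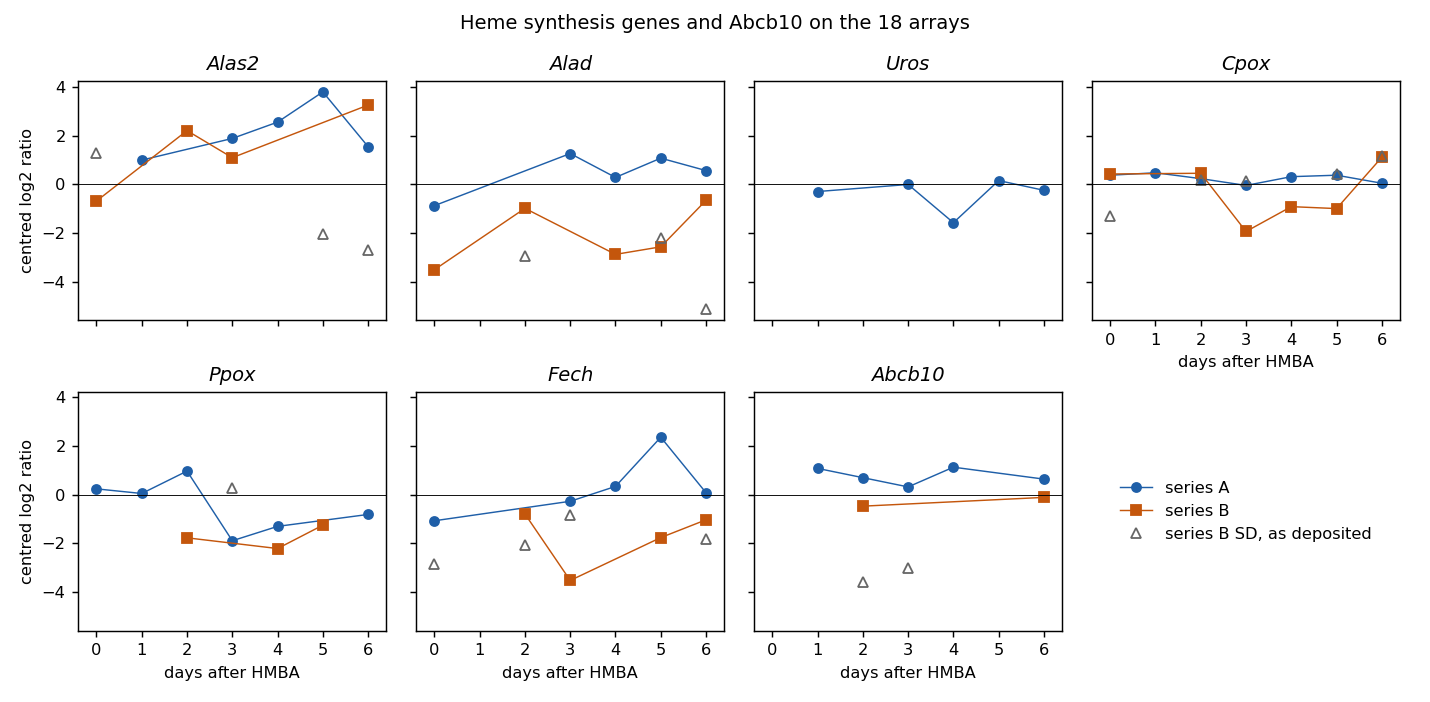
Centred log2 ratios (vertical axis) of the 7 genes by days after HMBA (horizontal axis) on series A (circles), series B (squares) and the SD arrays with the sign as deposited (open triangles); each point is 1 array. Alas2 stands at 0.99 to 3.79 on every measured day after day 0 in series A and B, while its SD points of days 5 and 6 lie at -2.04 and -2.72.

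A pair of fits was used for each comparison with day 0. The first took the 13 arrays of series A and B with days as groups, and the other took all 18 arrays with an offset per probe shared by all arrays and a day effect of opposite sign on SD arrays, so that what a probe reads without induction is estimated from every array. An SD array may share RNA with the series B array of its day, which makes p-values of the 18-array fit too small, and its sign convention was chosen with earlier results of these data known. Late means days 4, 5 and 6, and early means days 1 and 2. Of the 5 members that could be fitted late, 0 were called in the 13-array fit and 1, Alas2, was called in the 18-array fit, at an adjusted p under 0.05 in limma over all probes tested. In the 13-array fit the share called was 0.0 percent of 2491 probes (36 had an unadjusted p below 0.05). In the 18-array fit it was 0.606 percent of 3301 probes, 20 in all (292 had an unadjusted p below 0.05).

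Alas2 was the member with the largest late difference in both fits. In series A its ratio was 0.99 (day 1), 1.88 (day 3), 2.55 (day 4), 3.79 (day 5) and 1.54 (day 6). In series B it was -0.69 (day 0), 2.20 (day 2), 1.09 (day 3) and 3.25 (day 6). All 8 values after induction lay above the single value of day 0, and there was no value for 2 days of series A (0 and 2) or for 2 of series B (4 and 5). The SD arrays read 1.28 (day 0), -2.04 (day 5) and -2.72 (day 6), so the late SD values lay on the other side of their own day 0.

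The late difference of Alas2 was 2.53 log2 in the 18-array fit (SE 0.49, 5.76-fold; limma, adjusted p = 0.0102), ranking 6 of 3301 probes from the highest. In the 13-array fit it was 3.60 log2 (SE 1.16, 12.1-fold) with an unadjusted p = 0.00963 in limma, but an adjusted p = 0.9999. That larger value rests on 1 day 0 array. With the series letter as a replicate block the 18-array value was 2.59 log2 (limma, adjusted p = 0.00947), and with a series B array and its SD array as a random block it was 2.55 (limma, adjusted p = 0.0144). The call was lost without the SD array of day 6 (2.23 log2, limma, adjusted p = 0.268), could not be made without day 4 of series A, and was lost when the SD arrays entered with the sign as deposited (1.07 log2, limma, adjusted p = 0.9996). In such bulk RNA, more cells of a type and more RNA per cell cannot be told apart.

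The early difference of Alas2 was 2.29 log2 in the 13-array fit (SE 1.26) and 1.31 in the 18-array fit (SE 0.81), from 1 array each, day 1 (series A) and day 2 (series B). The 2 adjusted p-values were 0.9993 and 0.804 in limma, and 0.0 percent of probes were called in either fit (44 of 2588 and 192 of 3120 had an unadjusted p below 0.05). Late minus early was 1.31 log2 (SE 0.91; limma, adjusted p = 0.9968), where 0.0 percent of 2100 probes were called and 74 had an unadjusted p under 0.05. Within series A alone late minus early was 1.63 log2, and within series B it was 1.05, with no test.

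Alas1, which serves heme synthesis in all cells, read below day 0 late in both fits, without passing the threshold. Its ratio in series A was -0.22 (day 0), -0.31 (day 1), 0.83 (day 2), -1.42 (day 4), -1.43 (day 5) and -0.29 (day 6). Series B gave -0.66 on day 2 and -1.01 on day 5. The SD arrays read -0.03 (day 2), -0.14 (day 5) and -0.41 (day 6), with no day 0 value. The late SD values thus lay on the same side of 0 as day 5 of series B. The late difference was -0.76 log2 in the 13-array fit (SE 1.14) and -0.57 in the 18-array fit (SE 0.44; limma, adjusted p = 0.801), and its difference from Alas2 was not tested.

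Alad, the enzyme that makes porphobilinogen, read higher late than on day 0 in each series, although the levels of the 2 series lay far apart. In series A it was -0.88 (day 0), 1.26 (day 3), 0.28 (day 4), 1.07 (day 5) and 0.56 (day 6). In series B it was -3.51 (day 0), -0.99 (day 2), -2.88 (day 4), -2.57 (day 5) and -0.66 (day 6). Within each series every value after induction lay above its day 0, and no late value of series B reached any late value of series A.

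Late minus day 0 for Alad was 1.51 log2 within series A and 1.47 within series B, with 1 day 0 array each. In the 13-array fit it was 1.49 (SE 1.14, 2.81-fold; limma, adjusted p = 0.9999) and in the 18-array fit 1.34 (SE 0.49; limma, unadjusted p = 0.0114, adjusted p = 0.383). It was 0.76 in the 18-array fit with the series letter as a replicate block, 0.82 without day 4 of series A, or 1.87 if the series B array of that day was left out. The 13-array value was 0.18 without day 0 of series B, or 2.81 if that of series A was left out. The SD arrays read -2.96 (day 2), -2.19 (day 5) and -5.14 (day 6). Series B minus SD, divided by 2, was 0.98, -0.19 and 2.24 on these days, a mean of 1.01 (SE 0.43; limma, adjusted p = 0.314). That mean was 0.40 without day 6 and 1.61 without day 5.

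Uros, which closes the ring, was measured in series A alone. It read -0.30 (day 1), -0.01 (day 3), -1.58 (day 4), 0.15 (day 5) and -0.25 (day 6). There was no day 0 value, so no comparison with day 0 could be made, and 4 of the 5 values lay within 0.30 of the array median. With stages as groups late minus early was -0.26 log2 (SE 1.10; limma, adjusted p = 0.9927).

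Cpox, which acts on coproporphyrinogen between the mitochondrial membranes, was the best measured member and the one closest to day 0. In series A its ratio was 0.37 on day 0 and then 0.47, 0.23, -0.05, 0.31, 0.37 and 0.04 from day 1 to day 6. In series B it was 0.42 (day 0), 0.45 (day 2), -1.94 (day 3), -0.92 (day 4), -1.0 (day 5) and 1.11 (day 6). In series B the late values lay on both sides of day 0, and they spread more widely than in series A.

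The late difference of Cpox was -0.41 log2 in the 13-array fit (SE 0.79; limma, adjusted p = 0.9999) and -0.27 in the 18-array fit (SE 0.37; limma, adjusted p = 0.905). It was -0.13 within series A and -0.69 within series B. The early difference was 0.01 (SE 0.91). Series B minus SD, divided by 2, was 0.13, -1.03, -0.70 and -0.02 on days 2, 3, 5 and 6, against 0.86 on day 0, with a mean of -0.41 over the induced days (SE 0.31; limma, adjusted p = 0.624). That contrast called 16 of 1310 probes, 1.22 percent, and 0 of the 3 members it could test.

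Ppox, which makes protoporphyrin, was the member with the lowest late values relative to day 0. In series A it was 0.24 (day 0), 0.05 (day 1), 0.97 (day 2), -1.89 (day 3), -1.30 (day 4) and -0.81 (day 6). In series B it was -1.77 (day 2), -2.21 (day 4) and -1.25 (day 5). All 4 late values lay below the single day 0 value, while the 2 values of day 2 lay on opposite sides of it. The 1 SD value, 0.28 on day 3, was above the day 3 value of series A.

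The late difference of Ppox was -1.52 log2 in the 13-array fit (SE 1.27; limma, adjusted p = 0.9999) and -0.82 in the 18-array fit (SE 0.83; limma, adjusted p = 0.867). With the series letter as a replicate block it was -0.60 on 13 arrays and -0.51 on 18 arrays. Late minus early was -1.10 (SE 0.91; limma, adjusted p = 0.9968), and it was -0.42 without day 2 of series A, the array that stood apart, or -1.78 if the series B array of that day was left out. Within series A late minus early was -1.57, and within series B it was 0.03.

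Fech, ferrochelatase, had late values that split by series. In series A it was -1.07 (day 0), -0.27 (day 3), 0.34 (day 4), 2.36 (day 5) and 0.08 (day 6). In series B it was -0.79 (day 2), -3.52 (day 3), -1.76 (day 5) and -1.03 (day 6), with no day 0 value. Every series A value after induction was above day 0, and 2 of the 4 series B values were below the day 0 value of series A. The SD arrays read -2.86 (day 0), -2.06 (day 2), -0.84 (day 3) and -1.83 (day 6).

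The late difference of Fech was 1.12 log2 in the 13-array fit (SE 1.55; limma, adjusted p = 0.9999) and 1.43 in the 18-array fit (SE 0.62, 2.70-fold; limma, unadjusted p = 0.0302, adjusted p = 0.484). Within series A it was 2.00. Without day 5 of series A the 13-array value was 0.44 and the 18-array value 0.75, while leaving out the series B array of that day gave 1.81 and 2.12. With the series letter as a replicate block the 18-array value was 0.53. Series B minus SD, divided by 2, was 0.63, -1.34 and 0.40 on days 2, 3 and 6, with a mean of -0.10 (SE 0.41; limma, adjusted p = 0.969).

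Abcb10, the transporter, was above the array median on every series A array that measured it. It read 1.08 (day 1), 0.70 (day 2), 0.32 (day 3), 1.13 (day 4) and 0.64 (day 6) in series A. In series B it read -0.47 (day 2) and -0.11 (day 6), and the SD arrays read -3.58 (day 2) and -3.0 (day 3). A late difference could not be fitted on 13 arrays, which held no day 0 value, nor on 18 arrays, none of which measured it on day 5. The 18-array fit, which takes the offset from the SD arrays, gave an early value of 2.22 log2 (SE 0.63; limma, unadjusted p = 0.00217, adjusted p = 0.777). With stages as groups late minus early was 0.12 log2 (SE 0.74; limma, adjusted p = 0.9927).

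**Figure D2:**
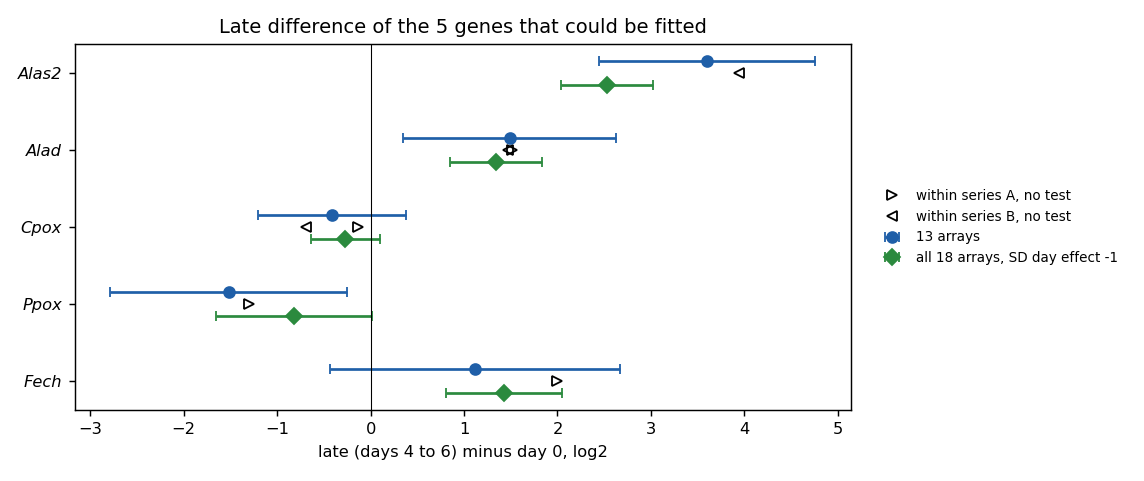
Late minus day 0 in log2 (horizontal axis) for the 5 genes that could be fitted (rows, in pathway order), from the 13-array fit (circles) and the 18-array fit (diamonds) with bars of 1 standard error, and within each series without a test (open triangles). Alas2 stands at 3.60 and 2.53, the fitted values of Alad and Fech lie between 1.12 and 1.49, and all values of Cpox and Ppox lie below 0.

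Across the pathway, 3 of 5 members that could be fitted late read above day 0 (Alas2, Alad and Fech) and 2 below it (Cpox and Ppox). Over all probes 59.4 percent read above day 0 in the 13-array fit and 56.9 percent in the 18-array fit, so the count of members is near the background. The median late difference of the 5 was 1.12 log2 in the 13-array fit, against 0.16 over all probes, and 1.34 in the 18-array fit, against 0.10 over all probes. Alad ranked 87 and Fech 66 of 3301 from the highest in the 18-array fit, Cpox 2461 and Ppox 3085. At an unadjusted p under 0.05 the 18-array fit held 3 of the 5 members (Alas2, Alad and Fech), against 8.85 percent of all probes. With the series letter as a replicate block, its unadjusted p was 0.07 for Alad and 0.348 for Fech in limma, so neither stayed under 0.05. The 13-array fit held 1 of the 5 members, against 36 of 2491 probes. By day, the highest series A value fell on day 5 for Alas2, Uros and Fech, on day 3 for Alad, on day 4 for Abcb10, on day 2 for Ppox and on day 1 for Cpox. Only Cpox was measured on all 7 days of series A, and Abcb10 and Ppox had no value on day 5. The days of the highest values are therefore not comparable between members.

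Members resembled each other in part. Over the arrays both had, Pearson's r was 0.77 between Alad and Fech (8 arrays), 0.72 between Alas2 and Alad (7 arrays), 0.70 between Alas2 and Fech (7 arrays) -0.19 between Ppox and Fech (6 arrays), -0.37 between Cpox and Abcb10 (7 arrays) and -0.48 between Alas2 and Abcb10 (6 arrays). These are descriptions, and whether arrays shared control RNA was not given by the labels. Arrays of series A and B were pooled, so a difference of level between the series enters r. Late, Alad and Fech read higher in series A than in series B by 2.67 and 2.32 log2.

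**Figure D3:**
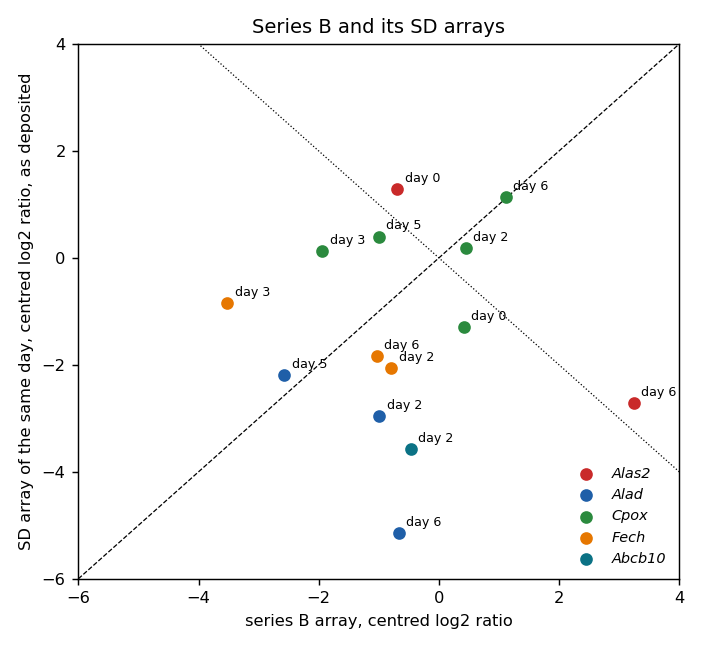
Series B ratio (horizontal axis) against the ratio of the SD array of the same day as deposited (vertical axis), both centred log2, for each member and day measured on both; the dashed line marks equal values and the dotted line opposite ones. Alas2 lies near the dotted line on day 6 (3.25 and -2.72), while Cpox on day 6 (1.11 and 1.14) and Alad on day 5 (-2.57 and -2.19) lie near the dashed line.

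The probe most like Alas2 over the 13 arrays was Btg2, an antiproliferative gene, by the root mean square difference of centred ratios about each probe's own mean. That difference was 0.28 log2 over 8 shared arrays, against a median of 1.37 over 906 candidate probes, and the next was the acetyl-CoA transporter gene Slc33a1 at 0.55. Btg2 read 2.13, 3.19 and 0.64 on days 4, 5 and 6 of series A, and its SD values of days 5 and 6 were -1.93 and -2.79, so it too lay on the other side of 0 there. Closest to Alad were Erbin (0.50 log2 over 8 arrays) and Vdac1, a channel of the mitochondrial outer membrane (0.52 over 9). For Alad and Fech the difference of level between series A and B enters this measure too. Closest to Fech were Pfkp (0.48 over 8) and Oaz1 (0.52 over 9), closest to Ppox were Dbf4 (0.44 over 8) and Gas5 (0.46 over 8), and closest to Cpox were Nxf1 (0.36 over 12) and Traip (0.43 over 12).

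Genes that supply or surround the pathway are given by lists. Of 12 genes for glycine and succinyl-CoA supply 6 had a probe, and of the 3 that could be fitted late in the 18-array fit 2 read higher, 1 lower and 0 were called (median 0.06 log2). Suclg1, a subunit of succinyl-CoA synthetase, was 0.06 (SE 0.38) there and 0.98 in the 13-array fit (SE 0.82). Of 25 genes for mitochondrial transport and iron-sulfur supply 7 had a probe, of which 5 could be fitted late, with 1 higher, 4 lower and 0 called (median -0.31). Clpx, the chaperone that activates Alas, was at -0.17 (SE 0.36), and Hspa9, a mitochondrial chaperone, at -1.09 (SE 0.49; limma, adjusted p = 0.508). Of 20 genes for heme binding, sensing, breakdown and export 10 had a probe and 5 could be fitted late, with 4 higher, 1 lower and 0 called (median 0.17), while the 13-array fit had 1 higher, 2 lower and 0 called of 3 (median -0.52). Pgrmc1, a heme-binding membrane protein, was at -0.21 (SE 0.41), and at -1.45 in the 13-array fit (SE 1.10). Tspo, an outer membrane protein that binds porphyrins, was at 0.27 (SE 0.62), and Bach1, a repressor that heme releases from DNA, at 0.17 (SE 0.46), against -0.52 in the 13-array fit.

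Globins, whose chains take up the heme, had 4 probes that could be fitted late in the 18-array fit, 3 higher and 1 lower, and 2 were called. Over all probes 56.9 percent read higher and 0.606 percent were called. Hba-ps3 was at 4.30 log2 (SE 0.50; limma, adjusted p = 9.23e-06) and Hbb-b2 at 2.28 (SE 0.38; limma, adjusted p = 0.00134), beside Alas2 at 2.53. In the 13-array fit, which leaves out the SD arrays, neither was called. Hba-ps3 was at 4.43 there (SE 0.93; limma, adjusted p = 0.658) and Hbb-b2 at 2.34 (SE 0.89; limma, adjusted p = 0.9999). The sign given to SD arrays was chosen with earlier results known, and Hba-ps3 served above to read the direction. The p-values of the 18-array fit are therefore not independent of that sign, and 0 probes were called with SD signs as deposited. The Hba-ps3 symbol names a pseudogene, and near-identical alpha-globin transcripts could not be separated from it. Of 14 factors that act at heme genes 10 could be fitted, with 6 higher, 4 lower and 0 called (median 0.58), while the 13-array fit had 9 higher, 1 lower and 0 called (median 0.64). Gata1, the main GATA factor of erythroid cells, was at -0.08 (SE 0.44), and at 0.67 in the 13-array fit. Its cofactor Zfpm1 was at -0.47 (SE 0.45), and at 0.43 in the 13-array fit. Ldb1, a bridging protein of GATA1 complexes, was at -1.16 (SE 0.39; limma, adjusted p = 0.319), and Aco1, an iron sensor, at 0.44 (SE 0.41).

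**Figure D4:**
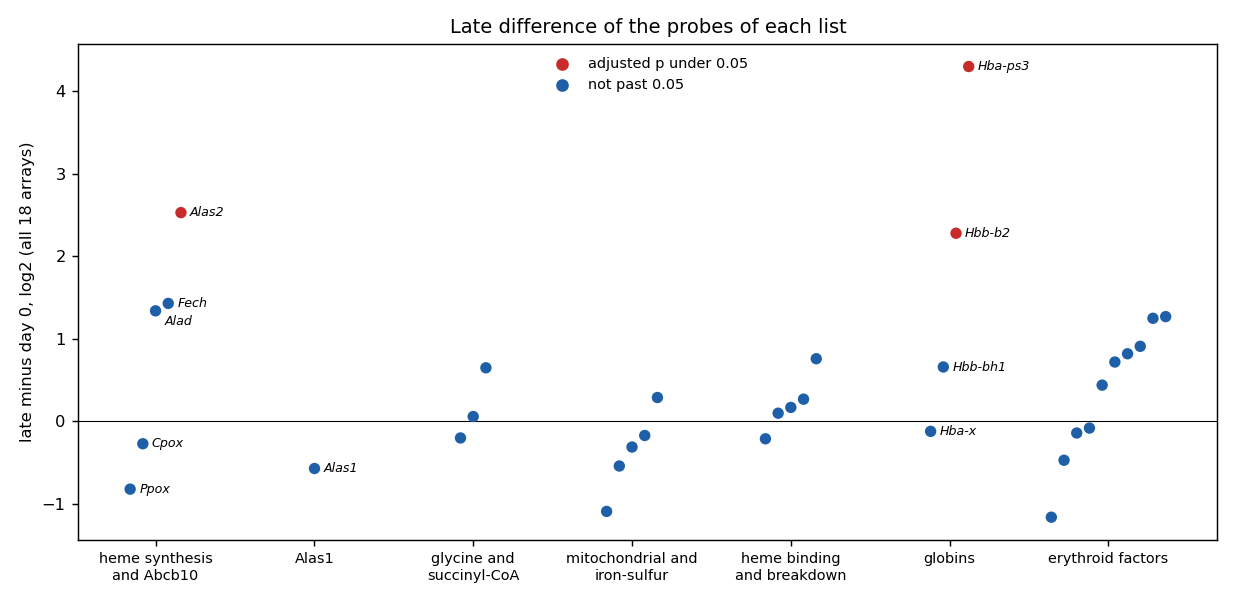
Late minus day 0 in log2 from the 18-array fit (vertical axis) for each probe that could be fitted, by list (horizontal axis; the marker lists of cell types are not drawn); red points had an adjusted p under 0.05 in limma over all 3301 probes. Alas2, Hba-ps3 and Hbb-b2 are the red points, at 2.53, 4.30 and 2.28.

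The labelled cell type could not be checked with these data, since ratios to uninduced cells of the same line give no level. Whether marker probes had values does not separate cell types either. All 10 erythroid probes had a value on some array, but so did all 4 megakaryocyte, 7 mast cell, 7 myeloid and 4 lymphoid probes. Of 15 erythroid markers 9 genes had a probe. In the 18-array fit 9 of their probes could be fitted late, with 5 higher, 4 lower and 0 called (median 0.06). Of the markers of other lineages, mast cell Mcpt2 was called at -2.94 log2 (SE 0.52; limma, adjusted p = 0.00421) among 3 mast cell probes that could be fitted, with Kit at 0.86 and Tpsb2 at -0.43. In the 13-array fit Mcpt2 was at -3.14 (SE 1.19; limma, adjusted p = 0.9999) and was not called. With SD signs as deposited 0 probes were called over 18 arrays. Megakaryocyte probes were higher in 3 of 3 in the 18-array fit with 0 called. Over all probes of that fit 56.9 percent read higher and 0.606 percent were called. The 2 lymphoid probes that could be fitted there, both of Ptprc, were at -0.33 and 0.06, and 0 of 7 myeloid probes could be fitted. Their part in the heme values was not tested.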

How the data were processed

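Two-colour arrays of total RNA were made on 7 days in 2 series. The deposited table held log2 ratios for 18 arrays and 6868 probes. The scale was recognised from the values, because ratios below a log2 of -2 came out as whole thousandths on the 13 arrays other than SD, and minus the values did so on the 5 SD arrays. SD values were thus minus the log2 of such a ratio, and whether their sign was turned before deposit was not settled. If it was turned to induced over control, the opposite sign in the 18-array fit would be wrong. Not given in the sources used here were the numerator channel, dyes, scanner and any normalization by the authors. Deposited log2 medians ran from -0.15 to 0.70, so arrays were centred on their medians.

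Platform symbols named the probes: 6108 carried 1 symbol, 41 several and 719 none. Moderated tests used limma 3.58.1 in R 4.3.3, 2-sided, with Benjamini-Hochberg adjustment over every probe that could be fitted with at least 1 residual degree of freedom and a threshold of 0.05. The 13-array fit took the arrays outside SD with day means as groups (n = 2, or 1 on day 1) with a shared spread (prior degrees of freedom 9.67, prior SD 1.05 log2). Day 1 was assumed to vary like the other days. The 18-array fit and the others were alternatives. Named genes were the members, up to 4 genes of each list with the most values, and the 2 probes nearest each member in pattern. Steps were tested on simulated data. The members, lists and the sign given to SD arrays were chosen with earlier results of these data known. The letters A and B did not mark a shared culture in the labels, and series A minus series B deviations correlated between days at 0.028 to 0.394 (15 pairs of days). Spot brightness was not used here, and the number of arrays limits the precision.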

Additional observations from a re-analysis of the deposited data

Results flagged for a closer look

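In 3 members every late array of series A that measured them read above 0 and every such array of series B below it. The mean late ratio of Alad, series A minus series B, was 2.67 log2 (0.64 over 3 arrays and -2.04 over 3 arrays). For Fech it was 2.32 log2 (0.93 over 3 arrays and -1.39 over 2 arrays). For Abcb10 it was 1.0 log2, from 1.13 (day 4) and 0.64 (day 6) in series A and a single value of -0.11 (day 6) in series B. These differences were not tested. Against day 0 of the same series, Alad differed late by 1.51 log2 in series A and 1.47 in series B. Fech had no day 0 value in series B, and Abcb10 had none in either series.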

How the results depend on the processing

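Over members and settings, 338 of 361 values kept their sign and side of the threshold. The count is not a measure of robustness, because the 13-array fit called 0 members to begin with. Leaving out an array of a day outside a contrast also cannot move its 13-array value. For example, Alas2 early was 2.29 log2 in all 10 settings without single arrays. Late minus day 0 called 1 probe without centring, 1 with equal spread, 1 with the series letter as a replicate block, 20 over all 18 arrays and 324 with ratios tested against 0. Early, quantile normalization called 8 and equal spread 3, and late minus early called 5 with quantile normalization. Leaving out single arrays called 0 to 0 in each of these 3. Series B minus SD called 34 without centring, 593 as a sum, 0 against day 0, 10 with all 4 days, and 0 to 74 without single days. Over 18 arrays 0 were called with SD signs as deposited, and 5 to 35 without single arrays (5 without day 6 SD, 10 and 12 without days 4 and 6 of series A, 13 without day 2 SD, 13 without day 5 SD, 35 without day 2 of series B).

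Signs turned as follows, and the cause was not tested. Against 0, Alad late was -0.70. With SD arrays averaged in as deposited, Cpox late was 0.14 and Alas2 late minus early -0.16. Early, Cpox was -0.01 with stages as groups, -0.12 with the replicate block and -0.02 within series A. Early, Ppox was 0.28 over 18 arrays, 0.04 with the block and 0.27 within series A, and within series B its late minus early was 0.03. As a sum of B and SD, Alad was called at -2.42 and Cpox was at 0.06. Fech was called in that sum too, at -1.68. Over 18 arrays as deposited, Cpox was 0.29. Without single arrays, Cpox early ran from -0.05 to 0.06, Ppox early from -1.10 to 0.27, Fech in B minus SD from -0.47 to 0.52 and Cpox over 18 arrays from -0.48 to 0.04. Against 0, Alas2 late was called at 2.91. Early and late minus early gave no value without day 1 of series A. With the replicate block the 18-array fit called 27 probes, against 20 without it, and no call of a member changed.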
